A study of Mus musculus with 8 samples.

Results

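The nuclear genes for subunits of the oxidative phosphorylation complexes were followed through mouse blood stem and progenitor cells that had shared the marrow with leukemic cells. Members were all genes whose symbol, taken from the platform annotation, begins as a subunit of complexes I to V does, with the complex III subunit Cyc1 and the electron carrier Cycs. The rule used names alone and no measured value. It found 83 genes on 169 probe sets, of 18193 genes measured, and the probe set that was brightest on average over the 8 arrays represented each gene. Complex I had 35 members, complex II 4, complex III 9, complex IV 17, complex V 17 and cytochrome c 1. The subunits that mitochondrial DNA itself encodes do not match the rule and are not analysed here. All 83 were found by gene identifier in the RefSeq table, and the label fits the genes as far as their names go. Ndufa4 was placed in complex I by its symbol, although its protein is now counted with complex IV.

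CD45.1+ cells of 4 groups were profiled, with 2 arrays each: HSC from leukemic mice, HSC from normal mice, KSL from leukemic mice and KSL from normal mice. Leukemic mice were CD45.1+ hosts that had received CD45.1+ marrow mixed in equal number with CD45.2+ marrow carrying BCR-ABL, a kinase fused by the translocation of chronic myeloid leukaemia, and SCL-tTA. SCL-tTA is a tetracycline-regulated activator driven by Scl, which acts in stem and progenitor cells, and it turns the kinase on when tetracycline is withdrawn from the drinking water. Normal mice were chimeras made without BCR-ABL, and the labels name no other allele, nor the age or sex of the mice. Cells were sorted 4 weeks after withdrawal in the series' design text, which names this time for the HSC. KSL cells are lineage negative, Sca-1+ and Kit+ marrow cells, and HSC are the CD150+ CD48- fraction of the same gate, so the HSC phenotype also lies within KSL. The measured cells themselves do not carry the transgenes. The labels do not say whether replicates came from separate mice or from pools, and p-values then measure only the spread between these samples.

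Oxidative phosphorylation passes electrons from NADH through complex I, or from succinate through complex II, to ubiquinone, then through complex III and the mobile carrier cytochrome c to complex IV, where oxygen is reduced. Complexes I, III and IV pump protons across the inner mitochondrial membrane, and complex V, the ATP synthase, uses the gradient to make ATP. Resting blood stem cells are known for leaning on glycolysis more than cycling progenitors do, and cytochrome c, once released from mitochondria, also starts the apoptosome.

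Values are log2 expression from the deposited RMA table, in which the lowest possible value is 3.32. Replicate arrays correlated across all genes, which are not independent replicates, with r = 0.9575 in HSC from leukemic mice, 0.9650 in HSC from normal mice, 0.9939 in KSL from leukemic mice and 0.9876 in KSL from normal mice. The median SD between replicates over the 83 members was 0.14, 0.11, 0.09 and 0.14 log2 units in that order of groups, against 0.21, 0.20, 0.09 and 0.11 over all genes. The sort could be read in its genes. Slamf1, which encodes CD150, lay at 8.23 and 8.47 in HSC from leukemic mice and 8.90 and 9.36 in HSC from normal mice, above the 5.27 to 7.06 of the KSL arrays. Cd48 lay between 6.19 and 8.12 on the HSC arrays and between 10.17 and 10.44 on the KSL arrays. Replicate 1 of HSC and of KSL from normal mice had a low level of Xist, the RNA of the inactive X chromosome, at 5.79 and 3.67. The other arrays, among them all from leukemic mice, had 11.63 to 11.99. If Xist marks sex, it was mixed within the normal groups alone. The arrays with low Xist are called male below on Xist alone. The arrays give relative levels, and neither the RNA per cell nor the number of mitochondria was measured. Fewer cells of a type and less RNA per cell cannot be told apart in such bulk samples.

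The subunit transcripts varied little over the 8 arrays. Of the 83, 72 had a mean over 9 on the log2 scale. The member without signal was Cox7b2, a testis isoform of complex IV, which lay at 3.32 on all 8 arrays. The difference between a gene's highest and lowest array had a median of 0.63 over the members and 0.90 over all genes, and it was under 1 in 68 of 83 members (81.9%) and in 55.7% of all genes. With a mean over 9, it was under 1 in 62 of 72 members (86.1%) and in 59.6% of 3004 genes. By complex, the median range was 0.69 in complex I, 0.65 in II, 0.71 in III, 0.64 in IV and 0.44 in V. Uqcrc2, a core protein of complex III, had a range of 0.20. The widest, named after their values were seen, were the complex I subunit Ndufb10 with 2.40, set by 12.28 on HSC normal 1 against 9.88 to 10.68 on the other arrays, the complex I subunit Ndufb4 with 2.36, between 5.53 on HSC leukemic 2 and 7.89 on KSL normal 2, and the small complex IV subunit Cox7c with 2.08, set by its HSC leukemic arrays at 8.55 and 6.47. Cox6a2 came next with 1.85, and Cycs had 1.38.

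**Figure D1:**
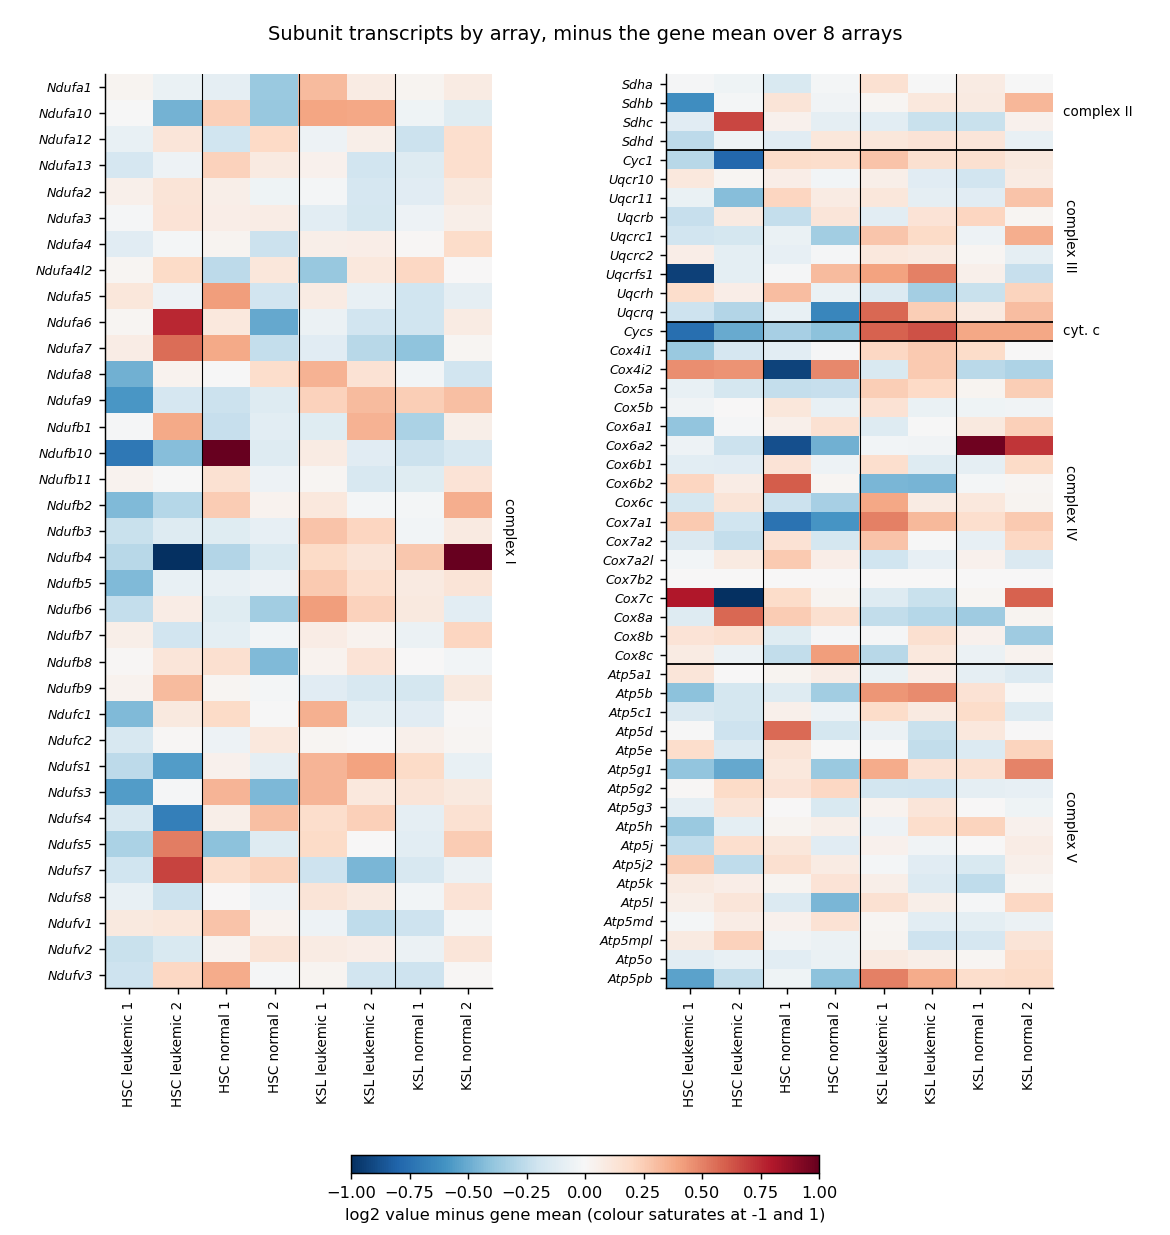
Log2 value of each of the 83 subunit genes (rows, grouped by complex) on each of the 8 arrays (columns), minus the gene's mean over the 8 arrays, from blue (lower) to red (higher). Most rows stay pale, with 68 of 83 genes spanning less than 1 log2 unit, while the row of Cycs is blue on all 4 HSC arrays and red on all 4 KSL arrays.

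Cytochrome c differed between stem cells and the wider progenitor gate. Cycs encodes the somatic cytochrome c, the water-soluble protein that carries single electrons from complex III to complex IV. It is the one member whose level was lower in HSC than in KSL by the test in both leukemic and normal mice. The promoter window that RefSeq gives for Cycs (GRCm38.p6, chr6:50566520-50566819, minus strand, 250 bases before to 50 after the start) is shown. It was chosen because Cycs had the smallest p of the members in HSC against KSL from leukemic mice. Matches to 2 motifs are in capitals. A cyclic AMP response element (TGACGTCA) begins 169 bases before the start, and an NRF1 core (CGCANGCG) begins 61 bases before it.
Cycs: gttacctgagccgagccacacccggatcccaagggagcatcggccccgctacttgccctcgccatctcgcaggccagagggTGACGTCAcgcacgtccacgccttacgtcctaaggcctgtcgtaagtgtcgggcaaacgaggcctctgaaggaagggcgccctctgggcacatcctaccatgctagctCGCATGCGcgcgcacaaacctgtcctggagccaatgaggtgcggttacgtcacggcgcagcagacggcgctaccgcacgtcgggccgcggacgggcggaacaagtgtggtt
Both kinds of site are known from the promoter of the rat gene. A match is a run of letters and says nothing of binding in these cells.

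Cycs had 10.25 and 10.50 in HSC from leukemic mice, against 11.59 and 11.63 in KSL from leukemic mice. In normal mice it had 10.67 and 10.59 in HSC, against 11.39 and 11.39 in KSL. All 4 HSC arrays thus lay below all 4 KSL arrays, and the largest gap was between the groups from leukemic mice. In leukemic mice Cycs was 2.36-fold lower in HSC than in KSL, with a log2 difference of -1.24 ± 0.09 (SE, n = 2 arrays per group, 95% confidence interval -1.48 to -1.0, limma adjusted p = 0.0113 over all genes). In normal mice the log2 difference was -0.76 ± 0.09 (SE, 1.69-fold lower, limma adjusted p = 0.0413). The difference between the 2 gaps, which is the interaction of cell type and leukemia, was -0.48 ± 0.13 and did not pass (limma adjusted p = 0.407). Within a cell type, leukemic minus normal was -0.25 ± 0.09 in HSC (adjusted p = 0.34) and 0.23 ± 0.09 in KSL (adjusted p = 0.664), with arrays that did not overlap in either cell type. The call in leukemic mice held in 16 of 20 alternatives and was lost without either KSL array from leukemic mice (adjusted p = 0.0948 without replicate 1 and 0.0765 without replicate 2) and in a fit of only the 4 arrays compared (0.0759). The call in normal mice held in 7 of 20 alternatives and reached 0.213 at most.

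Cycs has 4 probe sets, and their levels cannot be set against each other. The probe set that represents the gene, 1422483_a_at, is the one quoted. On 1456071_a_at the arrays had 8.59 and 9.02 in HSC from leukemic mice, 8.91 and 9.11 in HSC from normal mice, 10.09 and 10.59 in KSL from leukemic mice, and 10.68 and 10.13 in KSL from normal mice. On 1422484_at they had 8.14 and 8.94 in HSC from leukemic mice, 8.60 and 8.03 in HSC from normal mice, 9.25 and 9.37 in KSL from leukemic mice, and 9.05 and 8.96 in KSL from normal mice. Both place every HSC array below every KSL array, as the representing probe set does. The remaining one, 1445484_at, lay between 3.32 and 3.99, near the floor, and gave no such order. Over the 4 probe sets the HSC minus KSL difference ran between -1.54 and -0.10 in leukemic mice and between -1.39 and 0.23 in normal mice, where the dim probe set gave the positive value.

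**Figure D2:**
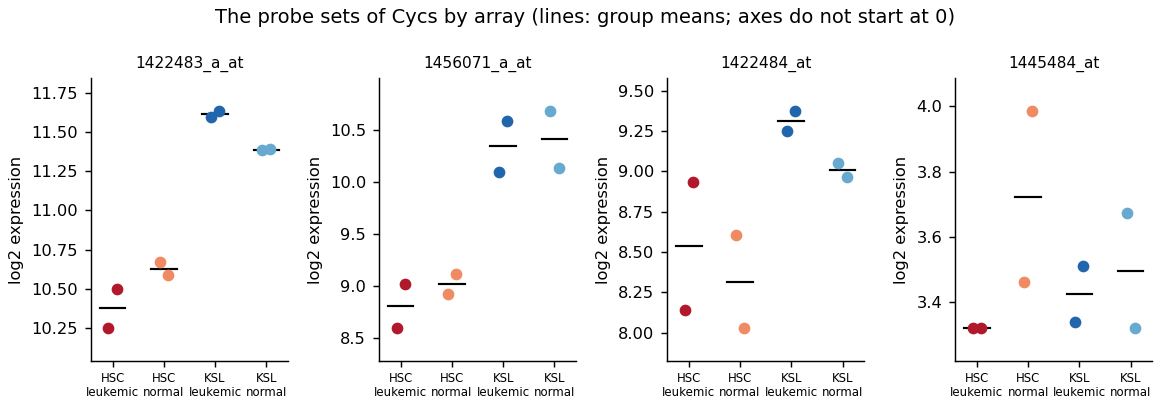
Log2 expression of the 4 probe sets of Cycs in HSC and KSL from leukemic and normal mice, with points for the 2 arrays of a group and lines for group means. The 3 brighter probe sets have every HSC array below every KSL array, and 1445484_at stays between 3.32 and 3.99.

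Set against KSL from leukemic mice, HSC from leukemic mice had lower values for a larger part of the subunits than of all genes. The 2 HSC arrays lay below both KSL arrays for 36 of 83 members (43.4%), against 23.2% of all genes, and above both for 15 of 83 (18.1%), against 28.2% of all genes. The log2 difference was negative for 52 members and positive for 31, and its median was -0.10, against 0.01 over all genes. By limma, 3 of 83 were lower (3.61%, against 2.74% of all genes) and 0 were higher (against 3.13%), with 20 members at an unadjusted p under 0.05 (24.1%, against 23% of all genes), 17 of them lower. The 3 that passed were Cycs, Ndufb3 of complex I and Atp5b of complex V. In HSC against KSL from normal mice the same counts were 21 of 83 below (25.3%, against 19.3% of all genes) and 14 of 83 above (16.9%, against 24.2%), with a median of -0.02. There 2 members were lower (2.41%, against 1% of all genes), Cycs and Cox6a2 of complex IV, and 0 were higher (against 0.803%), with 8 members at an unadjusted p under 0.05 (9.64%, against 16.2% of all genes). With quantile normalization of the deposited values the median in leukemic mice was -0.20 and 7 members passed, and with each array set to a common median it was -0.15. Against genes of like level the contrast in leukemic mice was smaller for the share below, but not for the share above or the median. With a mean over 9, the median was -0.12 over the members and 0.02 over all genes. With a mean over 9, 32 of 72 members lay below and 14 above, against 948 and 1031 of 3004 genes. At that level 19 of 72 members had an unadjusted p under 0.05, against 1038 of 3004 genes. By limma 3 of the 72 passed, against 317 of the 3004.

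Several lists of cell state markers moved with this comparison. All 15 measured genes of the long-term HSC list had a higher mean in HSC than in KSL in leukemic and in normal mice, with a summed linear level of 11250 to 11592 in HSC and 1725 to 1769 in KSL from leukemic mice. In normal mice that sum was 13712 to 14201 in HSC and 3097 to 3402 in KSL. The 14 genes of the granulocyte-monocyte progenitor list all had a lower mean in HSC, with sums of 7454 to 9940 in HSC and 52960 to 55195 in KSL from leukemic mice, and 4037 to 4538 in HSC and 40465 to 44617 in KSL from normal mice. Of 19 genes of the proliferation list, 19 had a lower mean in HSC from leukemic mice and 18 in HSC from normal mice, with 4 and 3 past the test. Their sums were 20195 to 20305 in HSC against 26341 to 27042 in KSL from leukemic mice, and 19903 to 20515 in HSC against 26544 to 27831 in KSL from normal mice. All 9 genes of the megakaryocyte list had a higher mean in HSC in both kinds of mice, 4 of them past the test in leukemic mice, with sums of 11883 to 12073 in HSC against 1443 to 1683 in KSL from leukemic mice. In normal mice the megakaryocyte sums were 5533 to 11021 in HSC against 2512 to 4175 in KSL. Of 9 genes of the mast cell and basophil list, 8 had a lower mean in HSC from leukemic mice and 7 in HSC from normal mice, with median log2 differences of -2.95 and -2.49. Their sums lay closer together, at 3597 to 4005.5 in HSC against 4473.5 to 4533 in KSL from leukemic mice, and at 2525.5 to 3617 in HSC against 3298 to 3737 in KSL from normal mice. Of 9 genes of the T and NK list 7 had a lower mean in HSC in both kinds of mice, with sums of 461 to 543 in HSC against 820 to 871 in KSL from leukemic mice and 370 to 447 in HSC against 961 to 1372 in KSL from normal mice. The erythroid list had 7 of 11 genes higher in HSC from leukemic mice and 8 of 11 in HSC from normal mice. Its sums were 5120 to 6094 in HSC against 2502 to 2650 in KSL from leukemic mice. The mature neutrophil and monocyte list had 7 of 14 genes higher in HSC from leukemic mice and 6 of 14 in HSC from normal mice. Its sums were 17460 to 22760 in HSC against 8521 to 12152 in KSL from leukemic mice. In normal mice they were 2399 to 12830 in HSC against 6217 to 7609 in KSL. The B lineage list had a median log2 difference of 0.14 in leukemic and -1.06 in normal mice, where 1 of 9 genes passed as lower by limma (against 1% of all genes). No gene of these lists lay at the floor on all arrays, apart from 1 of the T and NK list and 1 of the B lineage list.

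Control probes that compare the 3 prime with the 5 prime end of a transcript differed as well in leukemic mice, with log2 differences of 1.19 and 1.03 for Gapdh in HSC against 0.73 and 0.75 in KSL, and of -0.36 and -0.75 for Tfrc in HSC against -1.65 and -1.68 in KSL. In normal mice they were 0.78 and 0.83 in HSC against 0.89 and 0.74 in KSL for Gapdh, where the groups overlapped. For Tfrc they were -2.04 and -1.74 in HSC against -1.28 and -1.58 in KSL from normal mice. Actb had -0.42 and -0.50 in HSC against -0.53 and -0.53 in KSL from leukemic mice. In normal mice Actb had -0.37 and -0.38 in HSC against -0.48 and -0.48 in KSL. The part of cell makeup and RNA quality in the subunit differences was not tested.

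**Figure D3:**
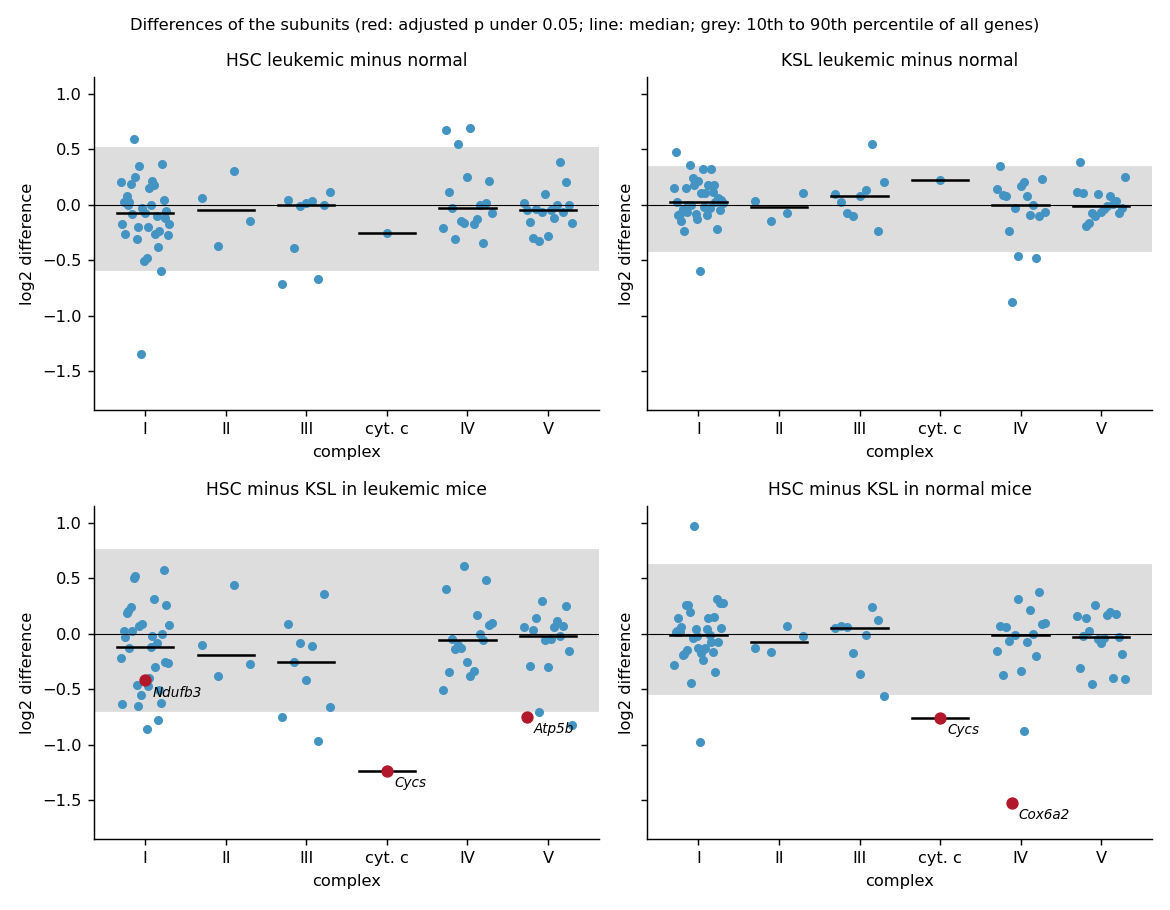
Log2 difference (vertical axis) of each subunit gene, by complex (horizontal axis), in 4 comparisons of 2 arrays against 2. Lines are medians, the grey band runs from the 10th to the 90th percentile of all genes, and red points passed at an adjusted p under 0.05: Cycs, Ndufb3 and Atp5b in HSC minus KSL from leukemic mice and Cycs and Cox6a2 in HSC minus KSL from normal mice.

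Complex I takes electrons from NADH and is the largest of the complexes. Of its 35 members, 16 lay below and 7 above KSL without overlap in HSC from leukemic mice, with a median log2 difference of -0.12 and a span of -0.86 to 0.57. In normal mice 7 lay below and 5 above, with a median of -0.01. Of all genes, 23.2% lay below and 28.2% above in leukemic mice, and 19.3% and 24.2% in normal mice. Ndufb3, an accessory subunit of the membrane arm, passed in leukemic mice.
Its promoter window, shown as that of a subunit that passed, had no match to any of the motifs searched (RefSeq, GRCm38.p6, chr1:58586147-58586446, plus strand).
Ndufb3: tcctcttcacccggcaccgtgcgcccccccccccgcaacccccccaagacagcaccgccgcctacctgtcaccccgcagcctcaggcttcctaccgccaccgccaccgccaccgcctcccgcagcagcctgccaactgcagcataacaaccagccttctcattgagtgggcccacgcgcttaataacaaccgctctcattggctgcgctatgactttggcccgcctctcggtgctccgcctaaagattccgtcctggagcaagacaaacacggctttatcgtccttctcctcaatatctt
Ndufb3 had 10.29 and 10.38 in HSC, against 10.79 and 10.72 in KSL from leukemic mice, and 10.39 and 10.42 in HSC, against 10.48 and 10.60 in KSL from normal mice. Every HSC array lay below every KSL array, by a small margin in normal mice. The log2 difference was -0.42 ± 0.06 in leukemic mice (SE, limma adjusted p = 0.0359) and -0.13 ± 0.06 in normal mice (adjusted p = 0.405). The call held in 4 of 20 alternatives. It was lost without any one of the 8 arrays, with adjusted p between 0.0533 and 0.194, and reached 0.183 without genes at the floor.

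Ndufs1, the iron-sulfur subunit at the entry of electrons from NADH, had 8.45 and 8.16 in HSC, against 9.05 and 9.12 in KSL from leukemic mice. The groups lay apart, but the log2 difference of -0.78 ± 0.14 missed the threshold (limma adjusted p = 0.0525). In normal mice its arrays had 8.76 and 8.62 in HSC and 8.90 and 8.64 in KSL, and overlapped. Ndufa9, which helps hold the matrix arm to the membrane arm, had 9.47 and 9.88 in HSC, against 10.28 and 10.37 in KSL from leukemic mice, with a difference of -0.65 ± 0.14 (adjusted p = 0.0808). In normal mice it had 9.84 and 9.93 in HSC, against 10.30 and 10.35 in KSL, with a difference of -0.44 ± 0.14 (adjusted p = 0.244). Ndufa9 thus lay lower on all 4 HSC arrays than on all 4 KSL arrays without passing in either. Ndufa3, an accessory subunit, ran the other way in leukemic mice, with 11.77 and 11.92 in HSC against 11.68 and 11.61 in KSL and a difference of 0.20 ± 0.07 (adjusted p = 0.178).

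Complex II is succinate dehydrogenase, which also works in the citric acid cycle. None of its 4 genes passed in a comparison of the cell types. The smallest p in leukemic mice was that of Sdhd, a membrane anchor, with 9.79 and 10.01 in HSC against 10.16 and 10.18 in KSL and a difference of -0.28 ± 0.13 (limma adjusted p = 0.286). Its second probe set gave -0.66, and with the mean of its probe sets as the gene's value the difference was -0.47 ± 0.06 (adjusted p = 0.0239). In normal mice the smallest p was that of Sdha, the flavoprotein, with a difference of -0.13 ± 0.08 (adjusted p = 0.529). The median over the 4 genes was -0.19 in leukemic mice and -0.07 in normal mice.

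Complex III, the cytochrome bc1 complex, had 5 of 9 members below KSL without overlap in HSC from leukemic mice and 1 above, with a median of -0.26. In normal mice 2 lay below and 1 above, with a median of 0.05. The shares of all genes were 23.2% below and 28.2% above in leukemic mice, and 19.3% and 24.2% in normal mice. Cyc1, the haem-bearing cytochrome c1 that hands electrons to cytochrome c, stood apart in one group alone. It had 9.55 and 9.04 in HSC from leukemic mice, against 10.01 and 9.999 in HSC from normal mice, and 10.11 and 9.99 in KSL from leukemic mice, against 9.98 and 9.93 in KSL from normal mice. The arrays of HSC from leukemic mice were the 2 lowest of the 8, and the other 6 lay between 9.93 and 10.11. HSC minus KSL was -0.75 ± 0.18 in leukemic mice (limma adjusted p = 0.09) and 0.05 ± 0.18 in normal mice (adjusted p = 1.00). Leukemic minus normal was -0.71 ± 0.18 in HSC (adjusted p = 0.221) and 0.09 ± 0.18 in KSL (adjusted p = 1.00), and the interaction of -0.81 ± 0.25 did not pass (adjusted p = 0.462). Without HSC leukemic 1 the difference between the HSC groups was -0.97 ± 0.07 and passed (adjusted p = 0.0377). That fit has 1 array in the group and assumes that it varies like the other groups, which alone give the error. Uqcrq, a small subunit, had 10.91 and 10.32 in HSC against 11.07 and 11.29 in KSL from normal mice, with a difference of -0.56 ± 0.23 (adjusted p = 0.345), while its 4 probe sets did not share a direction.

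**Figure D4:**
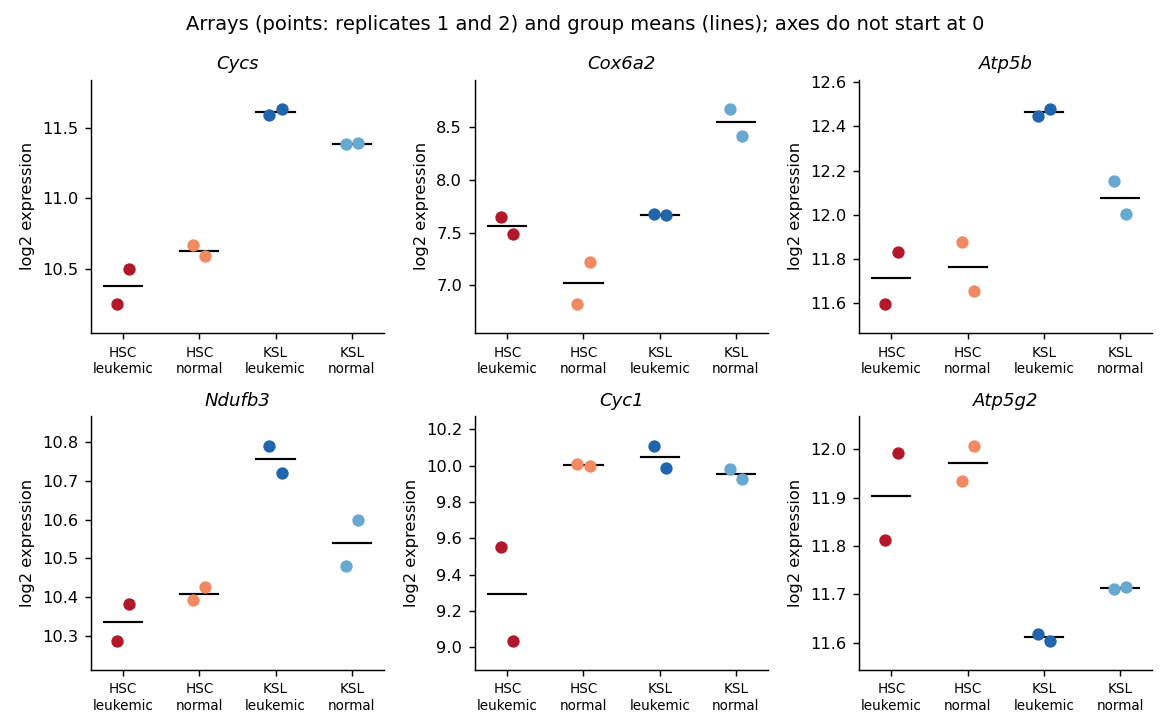
Log2 expression of 6 subunit genes in HSC and KSL from leukemic and normal mice, with points for the 2 arrays of a group and lines for group means. Cycs is lower on all 4 HSC arrays than on all 4 KSL arrays, Cox6a2 is highest in KSL from normal mice (8.67 and 8.42), and Cyc1 is lowest in HSC from leukemic mice (9.55 and 9.04).

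Complex IV, cytochrome c oxidase, had 5 of 17 members below KSL without overlap and 4 above in HSC from leukemic mice, and 5 below and 3 above in HSC from normal mice. Over all genes 23.2% lay below and 28.2% above in leukemic mice, and 19.3% and 24.2% in normal mice. The median difference in complex IV was -0.06 in leukemic mice and -0.01 in normal mice. Cox4i1, the common isoform of subunit 4 that binds regulatory nucleotides, had 11.12 and 11.32 in HSC, against 11.70 and 11.76 in KSL from leukemic mice. The groups lay apart, and the difference of -0.51 ± 0.10 missed the threshold (limma adjusted p = 0.0626). Cox6a2, the heart and muscle isoform of subunit 6a, was the member that passed in this complex, in normal mice. It had 7.65 and 7.49 in HSC and 7.67 and 7.67 in KSL from leukemic mice, and 6.82 and 7.22 in HSC and 8.67 and 8.42 in KSL from normal mice. In normal mice the cell types lay far apart, and both groups from leukemic mice lay between them. HSC minus KSL was -1.52 ± 0.17 in normal mice (SE, 2.88-fold lower, limma adjusted p = 0.0341) and -0.10 ± 0.17 in leukemic mice (adjusted p = 0.817). Leukemic minus normal was 0.54 ± 0.17 in HSC (adjusted p = 0.28) and -0.88 ± 0.17 in KSL (adjusted p = 0.274). The interaction of 1.42 ± 0.23 had the smallest p of all members in that test (unadjusted p = 0.00222) and did not pass over all genes (adjusted p = 0.258). The other probe set of Cox6a2, a dimmer one at 4.85 to 5.56, gave 0.07 for HSC minus KSL in normal mice, and the mean of both probe sets gave -0.73 (adjusted p = 0.0966), so the call rests on 1 probe set. It was also lost without either KSL array from normal mice (adjusted p = 0.135 without replicate 1 and 0.128 without replicate 2) and held in 9 of 20 alternatives.

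The ATP synthase, complex V, had 6 of 17 members below KSL without overlap and 3 above in HSC from leukemic mice, and 5 below and 5 above in HSC from normal mice. Its median difference was -0.02 in leukemic and -0.03 in normal mice. Among all genes 23.2% lay below and 28.2% above in leukemic mice, and 19.3% and 24.2% in normal mice. Atp5b, the beta subunit that carries the catalytic sites of the F1 head, passed in leukemic mice. Its promoter window, shown as that of a subunit that passed, had no match to the motifs searched (RefSeq, GRCm38.p6, chr10:128083057-128083356, plus strand).
Atp5b: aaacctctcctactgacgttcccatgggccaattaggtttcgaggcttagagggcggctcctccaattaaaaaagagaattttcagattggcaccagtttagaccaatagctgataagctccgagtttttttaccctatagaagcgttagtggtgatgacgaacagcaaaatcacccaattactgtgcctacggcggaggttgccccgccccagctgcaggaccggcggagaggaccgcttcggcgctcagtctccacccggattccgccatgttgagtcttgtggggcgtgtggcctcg
Atp5b had 11.60 and 11.83 in HSC, against 12.45 and 12.48 in KSL from leukemic mice, and 11.88 and 11.65 in HSC, against 12.15 and 12.00 in KSL from normal mice. Every HSC array lay below every KSL array. The difference was -0.75 ± 0.12 in leukemic mice (SE, 1.68-fold lower, limma adjusted p = 0.0413) and -0.31 ± 0.12 in normal mice (adjusted p = 0.308). The call held in 8 of 20 alternatives and was lost without either array of HSC from leukemic mice (adjusted p = 0.0774 and 0.0503), of KSL from leukemic mice (0.201 and 0.19) or of KSL from normal mice (0.0876 each).

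Atp5g2 ran against this direction on its representing probe set. It encodes the c subunit of the membrane ring, as do Atp5g1 and Atp5g3, which yield the same mature protein. Its promoter window, shown beside the members that were lower in HSC, held 1 NRF1 core, in capitals, 41 bases before the start (RefSeq, GRCm38.p6, chr15:102670998-102671297, minus strand).
Atp5g2: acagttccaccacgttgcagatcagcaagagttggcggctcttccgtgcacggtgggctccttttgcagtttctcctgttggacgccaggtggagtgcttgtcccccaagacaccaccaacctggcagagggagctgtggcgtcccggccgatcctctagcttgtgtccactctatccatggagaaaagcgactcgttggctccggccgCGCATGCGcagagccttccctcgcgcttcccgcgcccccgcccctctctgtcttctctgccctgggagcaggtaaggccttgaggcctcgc
Atp5g2 had 11.81 and 11.99 in HSC, against 11.62 and 11.60 in KSL from leukemic mice, and 11.94 and 12.01 in HSC, against 11.71 and 11.72 in KSL from normal mice. Every HSC array lay above every KSL array, with differences of 0.29 ± 0.07 in leukemic mice (limma adjusted p = 0.0927) and 0.26 ± 0.07 in normal mice (adjusted p = 0.176). Another of its 3 probe sets gave -0.91 and -0.74, so the probe sets did not agree in direction. The same HSC minus KSL differences were -0.71 and -0.46 for Atp5g1 and -0.05 and -0.05 for Atp5g3, with none past the test. Atp5a1, the alpha subunit of the F1 head, and Atp5md, a small membrane subunit, had differences of 0.16 ± 0.07 and 0.17 ± 0.07 in normal mice (adjusted p = 0.356 and 0.325).

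Matches in the promoter windows were counted over the members as a description. Windows were found for 67 of 83 members, 72 windows in all, among 32851 windows of the same 300 bases, and both strands were searched. The NRF1 core (CGCANGCG) was in 28 of the 72 (38.9%) and in 8.21% of all windows, and the ETS core bound by the GABP factor (CCGGAAG) was in 17 (23.6%) and in 8.86% of all. The YY1 core (AAGATGGC) was in 9 (12.5%) against 2.75%, the cyclic AMP response element (TGACGTCA) in 4 (5.56%) against 1.79%, and the E-box (CACGTG) in 7 (9.72%) against 7.15%. The last 2 motifs share the letters ACGT. The genes with the cyclic AMP response element were Cycs, Ndufa10, Ndufb2 and Uqcrfs1, and among these only Cycs passed a comparison. Of the genes described at length, Cycs and Atp5g2 held an NRF1 core, Atp5b and Ndufb3 held no motif, and the table used had no window for Cyc1 and Cox6a2.

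The comparison at the centre of the design asked how cells without the transgene differed in leukemic and in normal mice. In HSC, 0 of 83 subunits passed in either direction by limma, against 0.0605% of all genes higher and 0.0385% lower, and 9 had an unadjusted p under 0.05 (10.8%, against 13.8% of all genes). The median log2 difference was -0.05, with 30 members positive and 53 negative, and 74 of 83 lay within 0.5 of 0 (89.2%), against 77.1% of all genes. The HSC arrays from leukemic mice lay below both from normal mice for 19 of 83 (22.9%, against 16.7% of all genes) and above both for 10 (12%, against 16%). For 70 of 83 members the 95% confidence interval lay within 1 log2 unit of 0. By complex the median was -0.07 in I, -0.05 in II, -0.0023 in III, -0.03 in IV and -0.05 in V.

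No subunit is thus called between HSC from leukemic and from normal mice, and those with the smallest p are given as values. Ndufv2, an iron-sulfur subunit of complex I, had 10.28 and 10.35 in HSC from leukemic mice against 10.54 and 10.63 in HSC from normal mice (-0.27 ± 0.08, limma adjusted p = 0.251). Over its 3 probe sets the difference ran between -0.27 and 0.18. Ndufb2, an accessory subunit, had 9.81 and 9.96 in HSC from leukemic mice against 10.50 and 10.28 in HSC from normal mice (-0.51 ± 0.16, adjusted p = 0.292). Its 3 probe sets did not share a direction either, with differences between -0.51 and 0.85. The positive value came from the dimmest, with a mean of 6.88, and the other 2, with means of 10.24 and 9.86, were both lower. In complex II, Sdhb, the iron-sulfur subunit, had 9.46 and 10.06 in HSC from leukemic mice against 10.21 and 10.05 in HSC from normal mice, and the groups overlapped (-0.37 ± 0.22, adjusted p = 0.563). The complex V subunit Atp5l had 11.36 and 11.43 in HSC from leukemic mice against 11.17 and 10.85 in HSC from normal mice (0.38 ± 0.13, adjusted p = 0.326). Cox7a1, the muscle isoform of subunit 7a, had 4.56 and 4.11 in HSC from leukemic mice against 3.57 and 3.71 in HSC from normal mice, near the floor (0.70 ± 0.17, adjusted p = 0.223). Cyc1 and Ndufv2 have the lowest values of the 8 arrays in HSC from leukemic mice, whereas Cox7a1 is lowest in HSC from normal mice.

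Beside this comparison, 13 of 14 genes of the granulocyte-monocyte progenitor list and 13 of 14 of the mature neutrophil and monocyte list had a higher mean in HSC from leukemic mice. The summed linear level of the neutrophil and monocyte list was 22760 and 17460 in HSC from leukemic mice against 12830 and 2399 in HSC from normal mice, and no gene of either list lay at the floor on all arrays. Of 9 genes each, 8 of the megakaryocyte and 8 of the mast cell and basophil list had a higher mean in HSC from leukemic mice, while 10 of 11 erythroid and 11 of 15 long-term HSC genes had a lower one. None of the genes of these lists passed by limma, with 1 to 9 genes per list at an unadjusted p under 0.05. Of 19 proliferation genes, 10 had a higher mean and 9 a lower one, and 1 passed as higher by limma (against 0.0605% of all genes). The B lineage list had a median of 0.54, with 4 of 9 genes at an unadjusted p under 0.05, and the T and NK list a median of 0.34. Of these last 2 lists 0 genes passed. The 3 prime to 5 prime control probes also differed, with 1.19 and 1.03 for Gapdh in HSC from leukemic mice against 0.78 and 0.83 in HSC from normal mice. For Tfrc they gave -0.36 and -0.75 against -2.04 and -1.74. Actb ran the other way, with -0.42 and -0.50 in HSC from leukemic mice against -0.37 and -0.38 in HSC from normal mice. The part of other cells and of RNA quality in the subunit values was not tested.

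In KSL, 0 of 83 subunits passed in either direction by limma, against 0.0165% of all genes higher and 0.0275% lower, and 3 had an unadjusted p under 0.05 (3.61%, against 7.95% of all genes). The median log2 difference was 0.02, with 46 members positive and 37 negative, and 80 of 83 lay within 0.5 of 0 (96.4%), against 87.7% of all genes. The KSL arrays from leukemic mice lay above both from normal mice for 22 of 83 (26.5%, against 20.5% of all genes) and below both for 10 (12%, against 24.1%). Apart from Cox6a2, the smallest p among lower members were those of Cox6b2 and Ndufa3. Cox6b2, the testis isoform of subunit 6b, had 9.24 and 9.24 in KSL from leukemic mice against 9.68 and 9.71 in KSL from normal mice (-0.46 ± 0.20, limma adjusted p = 0.71), and Ndufa3 had a difference of -0.14 ± 0.07 (adjusted p = 0.764). Among higher members, Atp5b had 0.39 ± 0.12 (adjusted p = 0.535), Ndufb3 0.22 ± 0.06 (adjusted p = 0.51) and Cycs 0.23 ± 0.09 (adjusted p = 0.664), each with arrays that did not overlap. These are the same KSL arrays from leukemic mice that stand behind the calls of the 3 genes against HSC. For complex II and III the smallest p were those of Sdhd (0.11 ± 0.13, adjusted p = 1.00) and Uqcrc2 (0.13 ± 0.07, adjusted p = 0.823).

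Beside this comparison, 13 of 15 long-term HSC genes had a lower mean in leukemic mice, with sums of 1725 to 1769 in KSL from leukemic mice against 3097 to 3402 in KSL from normal mice. All 9 megakaryocyte genes had a lower mean, with sums of 1443 to 1683 in KSL from leukemic mice against 2512 to 4175 in KSL from normal mice. Of 14 neutrophil and monocyte genes 13 had a higher mean, with sums of 8521 to 12152 in KSL from leukemic mice against 6217 to 7609 in KSL from normal mice. Of 9 mast cell and basophil genes 8 had a higher mean, with sums of 4473.5 to 4533 in KSL from leukemic mice against 3298 to 3737 in KSL from normal mice. The granulocyte-monocyte progenitor list had 11 of 14 genes higher. The erythroid list had 6 of 11 genes lower and 4 higher, with a median log2 difference of -1.12. Its sums were 2502 to 2650 in KSL from leukemic mice against 4167 to 7374 in KSL from normal mice. The T and NK list had a median of -0.62, with sums of 820 to 871 against 961 to 1372. Of 19 proliferation genes 10 had a higher mean and 9 a lower one, and the B lineage list had a median of -0.05. None of the genes of these lists passed by limma, with 0 to 5 genes per list at an unadjusted p under 0.05. Their part in the subunit values was not tested.

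Averaged over both cell types, leukemic minus normal passed for 0 of 83 members by limma, against 0.0165% of all genes higher and 0.066% lower, and 3 had an unadjusted p under 0.05 (3.61%, against 12.6% of all genes). The median was -0.03. The smallest p were those of Cox7a1 (0.45 ± 0.12, limma adjusted p = 0.261), Ndufb2 (-0.32 ± 0.11, adjusted p = 0.367) and Cox6a1, the common isoform of subunit 6a (-0.27 ± 0.10, adjusted p = 0.392). Ndufb6, Cox8b and Atp5l had 0.24, 0.22 and 0.20, and Cyc1 and Sdhb had -0.31 and -0.26. For the interaction, which sets the difference in HSC against that in KSL, 0 of 83 members passed by limma, against 0% of all genes higher and 0.0055% lower, and 8 had an unadjusted p under 0.05 (9.64%, against 9.09% of all genes). Beyond Cox6a2, Cyc1 and Cycs, its values were -0.70 ± 0.20 for Ndufs1 (adjusted p = 0.43), -0.29 ± 0.09 for Ndufb3 (adjusted p = 0.46) and -0.44 ± 0.17 for Atp5b (adjusted p = 0.555). It was 0.50 ± 0.25 for Cox7a1, 0.38 ± 0.19 for Atp5l and -0.26 ± 0.18 for Sdhd.

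Alternative isoforms were read as a group of 11, made of the 3 c subunit genes Atp5g1, Atp5g2 and Atp5g3 described above, which were bright on every array, and 8 isoforms known from other tissues or from hypoxic cells. Cox6b2 had 9.91 and 9.78 in HSC against 9.24 and 9.24 in KSL from leukemic mice (0.61 ± 0.20, limma adjusted p = 0.17) and 10.30 and 9.72 in HSC against 9.68 and 9.71 in KSL from normal mice (0.31 ± 0.20, adjusted p = 0.548). Cox7a1 had 3.57 and 3.71 in HSC against 4.47 and 4.57 in KSL from normal mice (-0.88 ± 0.17, adjusted p = 0.104), and 4.56 and 4.11 in HSC against 4.81 and 4.62 in KSL from leukemic mice (-0.38 ± 0.17, adjusted p = 0.287). Cox4i2, the lung isoform of subunit 4, lay between 5.23 and 6.64 over the 8 arrays. Cox8b, of heart and muscle, lay between 5.69 and 6.21, and Cox8c, of testis, between 5.84 and 6.53. Ndufa4l2, a relative of Ndufa4 known from hypoxic cells, lay between 5.61 and 6.20. None of these 4 passed a comparison. Of the 11, 1 passed by limma, Cox6a2 as lower in HSC against KSL from normal mice, where 1% of all genes were lower. Between leukemic and normal mice 0 of the 11 passed. There 2 of 11 had an unadjusted p under 0.05 in HSC (against 13.8% of all genes) and 1 of 11 in KSL (against 7.95%).

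Where a subunit gene had several probe sets, they did not always point one way. Dim probe sets were counted here together with bright ones. Of the 49 members with more than 1 probe set, all probe sets shared a direction in 26 for HSC of leukemic against normal mice, 28 for KSL of leukemic against normal mice, 29 for HSC against KSL from leukemic mice and 25 for HSC against KSL from normal mice. Ndufb3, Atp5b, Cyc1, Ndufs1, Ndufa9 and Cox4i1 have a single probe set each. The representing probe set of 19 members carries a suffix that marks probes shared with other transcripts, and since subunit genes have many processed pseudogenes, these sources of signal cannot be told apart.

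Genes that serve the complexes without being part of them were read from 9 lists, with the same test. In HSC against KSL from leukemic mice, 4 of their 157 measured genes passed, 3 lower (1.91%, against 2.74% of all genes) and 1 higher (0.637%, against 3.13%). Coa7, an assembly factor of complex IV, was lower in HSC, with 6.35 and 6.64 in HSC against 7.27 and 7.20 in KSL (-0.74 ± 0.11, limma adjusted p = 0.0349). Slc25a12, the aspartate-glutamate carrier, was lower with 8.0 and 8.36 in HSC against 9.31 and 9.17 in KSL (-1.05 ± 0.18, adjusted p = 0.0459). Gsr, glutathione reductase, was lower with 9.42 and 9.10 in HSC against 11.47 and 11.52 in KSL (-2.24 ± 0.13, adjusted p = 0.00839), and it also passed in normal mice, with 9.07 and 9.14 in HSC against 10.52 and 10.75 in KSL (-1.53 ± 0.13, adjusted p = 0.0233). Coq8a, a kinase-like factor of coenzyme Q synthesis, was higher in HSC, with 8.72 and 9.26 in HSC against 7.57 and 7.47 in KSL from leukemic mice (1.47 ± 0.21, adjusted p = 0.0345). In normal mice its difference was 1.36 ± 0.21 (adjusted p = 0.0662).

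In HSC against KSL from leukemic mice, 7 of the 9 lists had more genes with a lower than with a higher mean in HSC. Of 22 genes that express mitochondrial DNA, 19 had a lower mean in HSC, with a median of -0.47, and 0 passed by limma with 8 at an unadjusted p under 0.05. In normal mice 13 of 22 were lower, with a median of -0.17. The smallest p in leukemic mice were those of the mitochondrial translation initiation factors Mtif2 (-1.0 ± 0.21, adjusted p = 0.0699) and Mtif3 (-0.49 ± 0.12, adjusted p = 0.102). Of 14 complex I assembly factors 10 were lower, with a median of -0.47 in leukemic mice and -0.29 in normal mice, 0 passed, and 2 had an unadjusted p under 0.05. Ndufaf6 and Ndufaf7, the factors with the smallest p, had -0.79 ± 0.28 and -0.92 ± 0.34 (adjusted p = 0.189 and 0.205). Of 14 citric acid cycle genes 9 were lower, with Suclg1 of succinyl-CoA ligase at -1.02 ± 0.19 (adjusted p = 0.06) and Dld, dihydrolipoamide dehydrogenase, at -1.33 ± 0.29 (adjusted p = 0.0804). Of 13 genes of pyruvate entry 8 were lower, with the pyruvate dehydrogenase kinase Pdk2 at 0.96 ± 0.24 and the dehydrogenase subunit Dlat at -0.76 ± 0.20 (adjusted p = 0.107 and 0.111). The other 2 lists had more higher than lower, with 6 of 11 genes of mitochondrial antioxidant defence higher (median 0.045) and 16 of 21 regulators of mitochondrial biogenesis higher (median 0.048). Among these regulators Prkaa1, a catalytic subunit of AMP kinase, had -0.72 ± 0.18 (adjusted p = 0.101).

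**Figure D5:**
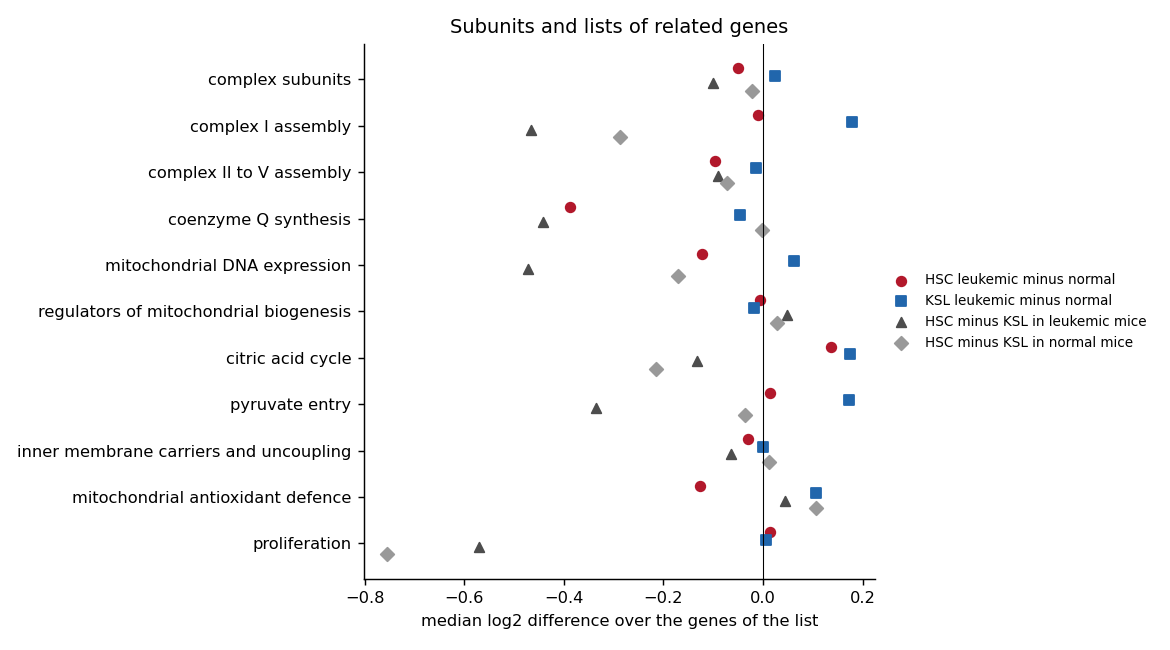
Median log2 difference (horizontal axis) over the 83 subunits, over 9 lists of related mitochondrial genes and over proliferation genes, in 4 comparisons. In HSC minus KSL from leukemic mice (triangles) the subunits lie at -0.10, complex I assembly and mitochondrial DNA expression at -0.47, and proliferation at -0.57.

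Between leukemic and normal mice, 0 genes of the 9 lists passed by limma in either cell type. In HSC, 11 of 12 genes of coenzyme Q synthesis had a lower mean in leukemic mice, with a median of -0.39 and 3 at an unadjusted p under 0.05, and with Coq2 at -0.52 ± 0.13 and Coq9 at -0.80 ± 0.20 (adjusted p = 0.216 and 0.229). Mtif3 had 7.83 and 7.53 in HSC from leukemic mice against 8.33 and 8.49 in HSC from normal mice (-0.73 ± 0.12, adjusted p = 0.141). Citrate synthase (Cs) had 10.94 and 10.99 in HSC from leukemic mice against 10.71 and 10.39 in HSC from normal mice (0.41 ± 0.11, adjusted p = 0.241). Ldha, the lactate dehydrogenase subunit of glycolytic tissue, had 12.01 and 12.01 in HSC from leukemic mice against 11.79 and 11.69 in HSC from normal mice, and 11.89 and 11.99 in KSL from leukemic mice against 11.70 and 11.58 in KSL from normal mice. It lay higher in leukemic mice on every array of its cell type, with differences of 0.28 ± 0.06 in HSC and 0.31 ± 0.06 in KSL that did not pass (limma adjusted p = 0.209 and 0.341). In KSL, Gsr had a difference of 0.86 ± 0.13 (adjusted p = 0.225) and the mitochondrial elongation factor Gfm1 0.61 ± 0.14 (adjusted p = 0.379).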

How the data were processed

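Messenger RNA was measured on 8 Affymetrix mouse arrays, 2 in each of 4 groups set by the cell type and disease state labels. Descriptions that mention embryos were set aside. For the KSL samples from leukemic mice the disease state label decided, since their titles name both states. The labels' protocols describe standard Affymetrix cRNA, while the series' design text names a Nugen amplification, so the amplification is not settled here.

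The authors deposited 1 table of log2 values for 45101 probe sets. Per the submitters' processing notes they came from RMA, with no version named. Any other step is not given in the sources used. The table has a floor of 10.0 on the linear scale, which held 14.9% to 15.8% of probe sets per array, and array medians lay between 5.74 and 5.86. By the supplied platform annotation 34945 probe sets had 1 symbol, 932 several and 9160 none, and 64 were controls. Ndufa11 and Ndufs6 have only probe sets with several symbols and are left out. Positions and promoters come from RefSeq tables of GRCm38.p6, which served for names and sequence only.

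One probe set per gene (the highest mean over 8 arrays) gave 18193 genes. Log2 values of all 8 arrays went into limma 3.58.1 under R 4.3.3, using lmFit with a mean for each group and eBayes (4 residual degrees of freedom), two-sided, with Benjamini-Hochberg adjustment over all genes and a threshold of 0.05. Errors after a log2 difference are standard errors of that fit, and precision is limited by the number of arrays. Tables were made with pandas 2.3.3 and numpy 2.4.6 in Python 3.11.15, and figures with matplotlib 3.10.9. The members and lists were chosen with earlier results of these data known. Named members are those that passed, the 3 higher and 3 lower with the smallest p and the smallest p of each complex in a comparison, and 11 alternative isoforms. Of the gene lists, those that passed are named, or otherwise up to 2 with the smallest p. Replicate numbers were not used to pair the arrays in the main fit. Deviations of arrays with the same number correlated between -0.04 and 0.09 over all genes. Such correlations cannot settle whether the numbers pair the arrays, and replicate 1 was the array with low Xist in both normal groups.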

Additional observations from a re-analysis of the deposited data

How the results depend on the processing

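Each result was recomputed under 20 alternatives (19 for the average and the interaction, which use all 8 arrays). The count of subunits that passed stayed at 0 for leukemic against normal in KSL, for the average and for the interaction, and was 0 to 1 in HSC when each array was left out in turn (1, Cyc1, without HSC leukemic 1). In HSC against KSL from normal mice the count of 2 was 0 with only the arrays compared, with the mean of all probe sets, with the replicate block, with a term for the male arrays and without the male arrays. It was 1 without genes at the floor or without the lowest 40% of genes, and 0 to 2 with an array left out. In HSC against KSL from leukemic mice the count of 3 was 7 with quantile normalization, 5 with the mean of all probe sets, 1 with the replicate block, a term for male arrays, no gene at the floor or without the lowest 40% of genes, 0 with only the arrays compared or without the male arrays, and 0 to 4 with an array left out. The median over the members moved beyond the spread between replicates as follows, where a range over left-out arrays has at least 1 end beyond it. Leukemic minus normal in HSC was -0.0041 with a common median, -0.13 with quantile normalization and -0.12 to -0.0048 with an array left out. In KSL it was 0.087 with a common median, -0.047 without the male arrays and -0.047 to 0.084 with an array left out. The average was 0.026 with a common median and -0.054 to 0.018 with an array left out. The interaction was -0.14 with quantile normalization, 0.036 without the male arrays and -0.11 to -0.0059 with an array left out. HSC minus KSL was -0.14 without the male arrays and -0.079 to 0.027 with an array left out in normal mice, and in leukemic mice -0.15 with a common median and -0.20 with quantile normalization. The cause of these changes was not tested. With 2 arrays per group and signal near the floor, differences of Cox7a1, Cox7b2 and the dim probe sets cannot be resolved. Whether replicate numbers pair the arrays is not settled, so calls lost under the replicate block are less secure. In normal mice these were Cox6a2 (limma adjusted p = 0.0931) and Cycs (0.0961), and in leukemic mice Atp5b (0.0873) and Ndufb3 (0.0684). Cycs in leukemic mice kept its call there (0.0369). No called difference changed sign under an alternative.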
